A study of Homo sapiens with 6 samples.

Results

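The 10 genes described here maintain the ends of chromosomes: TERT, the 6 shelterin genes TERF1, TERF2, TERF2IP, POT1, TINF2 and ACD, the helicase gene RTEL1, and ATRX with its partner DAXX. They were taken by symbol from count tables of 19923 protein-coding genes, and all 10 were found and expressed highly enough to be tested. The libraries came from Kelly, an established human neuroblastoma line with MYCN amplification, labelled wild type. One group of 3 libraries received a control siRNA (siControl) and the other 3 received an siRNA directed at METTL3 (siMETTL3), each for 72 hours, with no other agent. METTL3 is the enzyme subunit that deposits N6-methyladenosine (m6A) on messenger RNA. The labels do not say whether the replicates were separate cultures, so p-values measure the spread between these libraries only.

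Telomeres shorten with each round of replication unless they are extended. Telomerase does this with the reverse transcriptase TERT, which copies an RNA template bound by the dyskerin proteins. Shelterin coats the telomeric repeat, hides the end from DNA repair and controls access of telomerase. Cells without telomerase can instead use ALT (alternative lengthening of telomeres), a recombination pathway that often goes with loss of ATRX or DAXX, which place histone H3.3 at telomeres. In neuroblastoma, high-risk tumours are known for telomere maintenance by either route, and MYCN amplification is one known cause of high TERT expression.

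TERT rose in siMETTL3, POT1 and TERF2IP fell, and the other 7 genes did not pass the test. TERT was 1.44-fold higher, TERF2IP was 16.7% lower and POT1 was 11.9% lower. In such bulk RNA, less RNA per cell and fewer cells carrying it cannot be told apart. A gene was called when its false discovery rate (FDR, the Benjamini-Hochberg adjusted p over 15311 tested genes) in edgeR's quasi-likelihood test was under 0.05. The background is high: 37.8% of all tested genes were called, 18.6% as higher and 19.2% as lower. The telomere genes, with 3 of 10 called, thus lay near the background as a group. Leaving out 1 library at a time, the number called ran from 1 (without siControl replicate 2) to 5 (without siControl replicate 3). The groups did not overlap in 4 of the 10 genes, against 49.9% of all tested genes. Their median log2 fold change was -0.10, against -0.0021 over all tested genes.

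**Figure D1:**
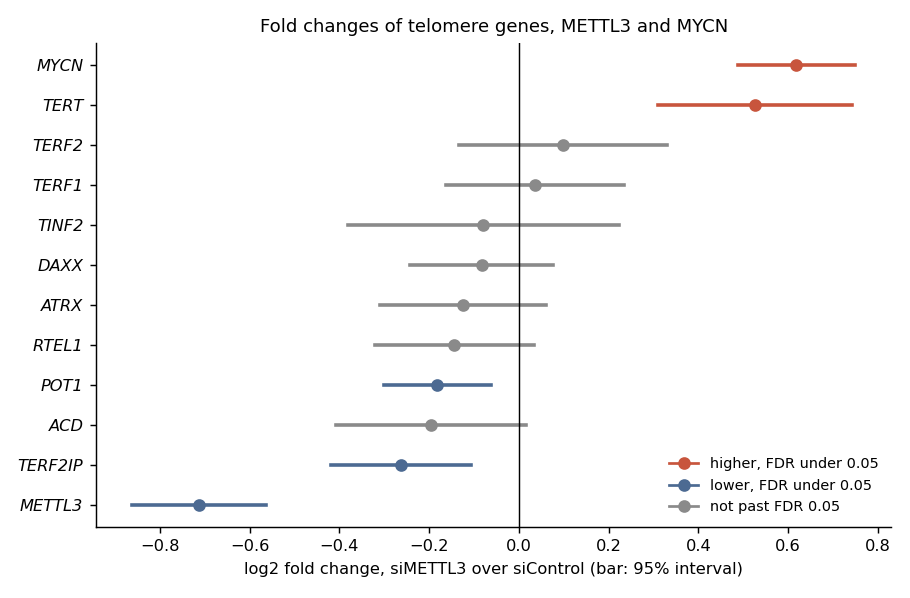
Log2 fold change of siMETTL3 over siControl (x axis) for the 10 telomere genes, METTL3 and MYCN (rows), with points for the estimate, bars for the 95% interval over 3 libraries a group, and colour for the call. TERT and MYCN lie above 0, POT1, TERF2IP and METTL3 below it, and the other intervals include 0.

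The promoters of the 3 called genes are shown because these are the members whose RNA differed. The windows come from RefSeq (GRCh38.p14), run 5′ to 3′ on the gene's own strand, and span 250 bases before the start to 50 after it. Capitals mark an E-box (CACGTG, the motif of MYC family proteins), a GC-box (GGGCGG) or an ETS motif (CCGGAAG). The reverse complements CCGCCC and CTTCCGG, the same motifs on the other strand, are also in capitals.
TERT, chr5:1295019-1295318, minus strand: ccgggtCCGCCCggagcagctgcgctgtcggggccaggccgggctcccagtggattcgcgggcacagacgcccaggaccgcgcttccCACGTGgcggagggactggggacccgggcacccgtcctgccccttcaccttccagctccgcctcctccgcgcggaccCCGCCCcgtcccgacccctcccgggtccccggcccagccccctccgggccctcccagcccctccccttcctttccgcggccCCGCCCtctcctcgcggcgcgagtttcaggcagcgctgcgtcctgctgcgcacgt
POT1, chr7:124929776-124930075, minus strand: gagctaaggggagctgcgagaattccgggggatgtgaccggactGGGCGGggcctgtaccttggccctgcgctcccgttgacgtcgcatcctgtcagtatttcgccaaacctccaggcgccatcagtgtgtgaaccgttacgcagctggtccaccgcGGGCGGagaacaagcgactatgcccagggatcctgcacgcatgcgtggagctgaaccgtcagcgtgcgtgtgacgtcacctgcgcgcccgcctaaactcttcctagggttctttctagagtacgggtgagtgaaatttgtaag
TERF2IP, chr16:75647523-75647822, plus strand: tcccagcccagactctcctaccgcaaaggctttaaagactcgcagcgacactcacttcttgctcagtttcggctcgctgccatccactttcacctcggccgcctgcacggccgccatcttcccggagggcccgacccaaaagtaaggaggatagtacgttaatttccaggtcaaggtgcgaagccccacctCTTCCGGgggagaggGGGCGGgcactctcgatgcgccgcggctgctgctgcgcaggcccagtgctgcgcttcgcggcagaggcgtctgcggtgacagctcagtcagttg

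The TERT window held 1 E-box, which began 163 bases before the start, and 3 GC-boxes, which began 244, 86 and 5 bases before it. Neither of the other printed windows held an E-box. The windows of TINF2, ACD and RTEL1, which were not called and are not printed, held none either. An E-box was present in 7.26% of the 35116 promoter windows of the table. POT1 held 2 GC-boxes, and TERF2IP held 1 GC-box and 1 ETS motif. The RefSeq start used for POT1 lies inside the deposited gene span, downstream of its 5′ end. GC-boxes were present in 45.0% and ETS motifs in 10.3% of all windows. Both strands were searched, and no motif overlapped another in the 3 printed windows. A motif cut by the end of a window was not counted, and the TERT window ends in cacgt. Of the 10 genes, 6 had an entry among the promoter windows searched for members. Entries on chromosome 8, where TERF1 lies, were left out of that search, so TERF1 was not looked up. These matches describe the letters of the reference and were not compared with binding data.

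METTL3, the targeted gene, was 39.0% lower in siMETTL3, with a log2 fold change of -0.71 ± 0.070 (SE, n = 3 per group; edgeR FDR 4.68e-06), so the labels matched the knockdown. Total counts ranged from 15430000 to 21565013 per library. Control libraries differed more among themselves than knockdown libraries did, and siControl replicate 3, with the lowest total, stood farthest out. The 8 neuroblastoma markers were present in every library, from 41.8 CPM (depth-scaled counts, normalised by edgeR's trimmed mean of M-values) for ISL1 upward. They summed to between 2096 and 2387 CPM in siControl and between 2973 and 3210 CPM in siMETTL3, with 4 higher and 1 lower. Markers of blood and endothelium summed to 5.25 to 6.41 CPM in siControl and 7.38 to 10.0 CPM in siMETTL3. Of these 8 markers, 6 stayed under 1 CPM in every library, and the sum came mostly from VWF (3.76 to 8.83 CPM). Epithelial markers summed to at most 8.45 CPM. Of the 8 fibroblast markers, 4 stayed under 1 CPM in every library, and their sum of 108 to 132 CPM came mostly from PDGFRB and THY1. The part of these marker differences in the telomere results was not tested.

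TERT (chromosome 5, 1253147 to 1295068, minus strand, GRCh38; 16 exons in its canonical transcript) was the member with the largest fold change. Its counts were 1012, 836 and 548 in siControl replicates 1 to 3 and 1274, 1437 and 1087 in the siMETTL3 replicates. Scaled for library size, these were 46.9, 41.8 and 36.4 CPM in siControl and 61.9, 66.0 and 52.9 CPM in siMETTL3. The lowest knockdown value exceeded the highest control value, a pattern seen in that direction in 24.8% of all tested genes. On average TERT went from 41.7 ± 5.28 to 60.3 ± 6.69 CPM (SD, n = 3). Its log2 fold change was 0.53 ± 0.10 (SE), with a 95% interval of 0.31 to 0.74 (edgeR FDR 0.00129). Of all tested genes, 10.2% had a fold change at least as high as that of TERT.

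The rise of TERT held in each of the 18 other settings that were run, with log2 fold changes from 0.44 to 0.62 and FDR values of at most 0.0109. The lowest value, 0.44, was obtained without siControl replicate 3, the library with the least TERT. No other protein-coding gene of the tables overlaps TERT. In GENCODE release 44 a long noncoding RNA on the opposite strand covers 6.75% of its span. The counts were made without strand, so reads from that RNA cannot be told apart from TERT reads.

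**Figure D2:**
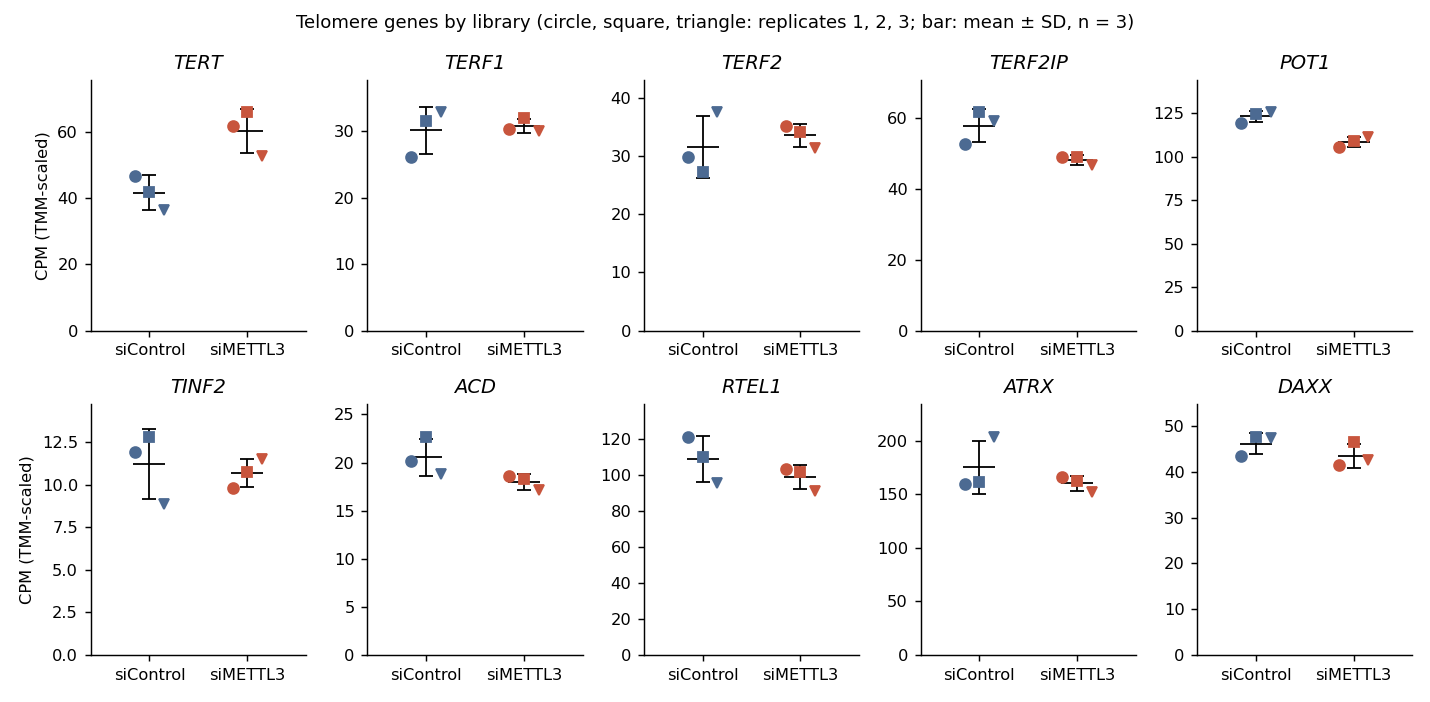
Expression of each of the 10 telomere genes in every library (y axis, CPM, each panel from 0), with symbols for replicates 1, 2 and 3 and bars for mean ± SD. The groups are separate for TERT, which is higher in siMETTL3, and for TERF2IP, POT1 and ACD, which are lower.

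MYCN, which encodes a transcription factor known to activate TERT, was 3036, 3147 and 2880 CPM in siControl and 4443, 4726 and 4743 CPM in siMETTL3. Its log2 fold change was 0.62 ± 0.061 (SE; edgeR FDR 5.17e-06), so MYCN and TERT were both higher in all 3 siMETTL3 libraries. Whether the changes are linked was not tested. By likeness of profile, the 3 genes closest to TERT among 11754 genes were MORN1, NRXN2 and NR4A1. Their log2 levels relative to the siControl mean differed from those of TERT by 0.029, 0.031 and 0.034 on average over the 6 libraries. Being chosen for this likeness, all 3 were higher too, with log2 fold changes of 0.54, 0.53 and 0.54. NRXN2 encodes a synaptic adhesion protein and NR4A1 a nuclear receptor that responds rapidly to stimuli.

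Of the 6 shelterin genes, 2 fell, 0 rose and 4 did not pass the test. Called lower were 33.3% of them, against 19.2% of all tested genes. In either direction the share was also 33.3%, below the background of 37.8%, and with 6 genes this is a description only. POT1 (chromosome 7, 124822386 to 124929983, minus strand) encodes the subunit that binds the single-stranded telomeric overhang. It measured 119.6, 124.7 and 125.5 CPM in siControl and 105.6, 108.9 and 111.3 CPM in siMETTL3. The groups did not overlap, and the replicates of each group lay close together. The log2 fold change of POT1 was -0.18 ± 0.055 (SE; 95% interval -0.30 to -0.063; edgeR FDR 0.0186). The call was lost without siControl replicate 2 (FDR 0.0744), siMETTL3 replicate 1 (FDR 0.0988) or siMETTL3 replicate 2 (FDR 0.0578). Adjusted for GC content and transcript length by an offset, the log2 fold change was -0.098 (FDR 0.114), and over all settings the FDR ran from 0.00141 to 0.114.

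TERF2IP (chromosome 16, 75647773 to 75761872, plus strand) encodes RAP1, which joins shelterin by binding TERF2. It measured 52.7, 61.6 and 59.3 CPM in siControl and 48.9, 49.0 and 46.6 CPM in siMETTL3. The groups were fully separate, and the siMETTL3 values were nearly equal. The log2 fold change was -0.26 ± 0.072 (SE; 95% interval -0.42 to -0.11; edgeR FDR 0.0110). The call was lost without siControl replicate 2 (FDR 0.0726) or siMETTL3 replicate 3 (FDR 0.0550), within a range of 0.000998 to 0.0726 over all settings. The start of TERF2IP overlaps 871 bases of KARS1, the lysyl-tRNA synthetase gene on the opposite strand. KARS1 had 2198 to 3200 counts and fell as well (log2 fold change -0.54, edgeR FDR 1.10e-05). A read over both genes was counted for each, and the part of shared reads in the TERF2IP change was not tested. The deposited span of TERF2IP also covers AC025287.4, CPHXL and DUXB, which had at most 18, 6 and 6 counts.

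TERF1 and TERF2 encode the proteins that bind the duplex telomeric repeat. TERF1 (chromosome 8, 73008864 to 73048123) measured 26.1, 31.5 and 32.9 CPM in siControl and 30.4, 32.0 and 30.1 CPM in siMETTL3. The siMETTL3 values lay within the siControl range, and the log2 fold change was 0.036 with a 95% interval of -0.16 to 0.24 (edgeR FDR 0.796). TERF2 (chromosome 16, 69355567 to 69408571) measured 29.8, 27.2 and 37.5 CPM in siControl and 35.2, 34.1 and 31.4 CPM in siMETTL3. The 37.5 CPM of siControl replicate 3 was the highest of the 6 values, and the groups overlapped. The log2 fold change of TERF2 was 0.099 with a 95% interval of -0.13 to 0.33 (edgeR FDR 0.507). Without siControl replicate 3 it was 0.23 and past the threshold (FDR 0.0305, within a range up to 0.985 over all settings). AC026464.3, on the same strand, overlaps 740 bases of TERF2, had 1023 to 1385 counts and fell (log2 fold change -0.30, edgeR FDR 0.00189), and the part of shared reads in the TERF2 values was not tested.

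TINF2 encodes the hub that joins the repeat-binding proteins, and ACD encodes TPP1, which links POT1 to that hub and recruits telomerase. TINF2 (chromosome 14, 24239643 to 24242674) measured 11.9, 12.8 and 8.89 CPM in siControl and 9.82, 10.7 and 11.5 CPM in siMETTL3. It was the member with the fewest counts, 134 to 257 per library, and had the widest interval, -0.38 to 0.22 around a log2 fold change of -0.080 (edgeR FDR 0.697). ACD (chromosome 16, 67657512 to 67660815) measured 20.1, 22.7 and 18.8 CPM in siControl and 18.6, 18.2 and 17.1 CPM in siMETTL3. Every siMETTL3 value of ACD lay below every siControl value, a pattern seen in that direction in 25.1% of all tested genes. Its log2 fold change of -0.20 (95% interval -0.41 to 0.016) did not pass the test (edgeR FDR 0.137).

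RTEL1 (chromosome 20, 63657810 to 63696253) encodes a helicase that unwinds telomeric loops and other DNA structures during replication. It measured 121.0, 109.8 and 95.6 CPM in siControl and 103.2, 101.6 and 90.9 CPM in siMETTL3. The groups overlapped through siControl replicate 3, the lowest control, and the log2 fold change was -0.14 (95% interval -0.32 to 0.033; edgeR FDR 0.189). Without that library it was -0.23 and past the threshold (FDR 0.00373), and adjusted for GC content and transcript length it was also -0.23 (FDR 0.00269). Over all settings the FDR of RTEL1 ran up to 0.538. The readthrough gene RTEL1-TNFRSF6B covers 96.1% of the RTEL1 span, with 1391 to 2572 counts against 1440 to 2610 for RTEL1, so the counts of the pair are largely the same reads.

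ATRX (chromosome X, 77504878 to 77786233) encodes a chromatin remodeller and DAXX the histone H3.3 chaperone that works with it, and loss of either goes with ALT. ATRX measured 159.6, 161.7 and 203.6 CPM in siControl and 166.2, 162.0 and 152.3 CPM in siMETTL3. The value of siControl replicate 3 stood apart, and the other 5 libraries lay between 152.3 and 166.2 CPM. The log2 fold change of ATRX was -0.13 (95% interval -0.31 to 0.059; edgeR FDR 0.274), and -0.0050 without siControl replicate 3 (FDR 0.954). DAXX (chromosome 6, 33318558 to 33323016) measured 43.5, 47.7 and 47.4 CPM in siControl and 41.5, 46.5 and 42.7 CPM in siMETTL3. The groups overlapped, and the log2 fold change was -0.083 (95% interval -0.24 to 0.075; edgeR FDR 0.404). SMIM40 covers 36.6% of the DAXX span and had 208 to 264 counts against 714 to 1012 for DAXX. Both ATRX and DAXX were thus expressed in every library of both groups.

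**Figure D3:**
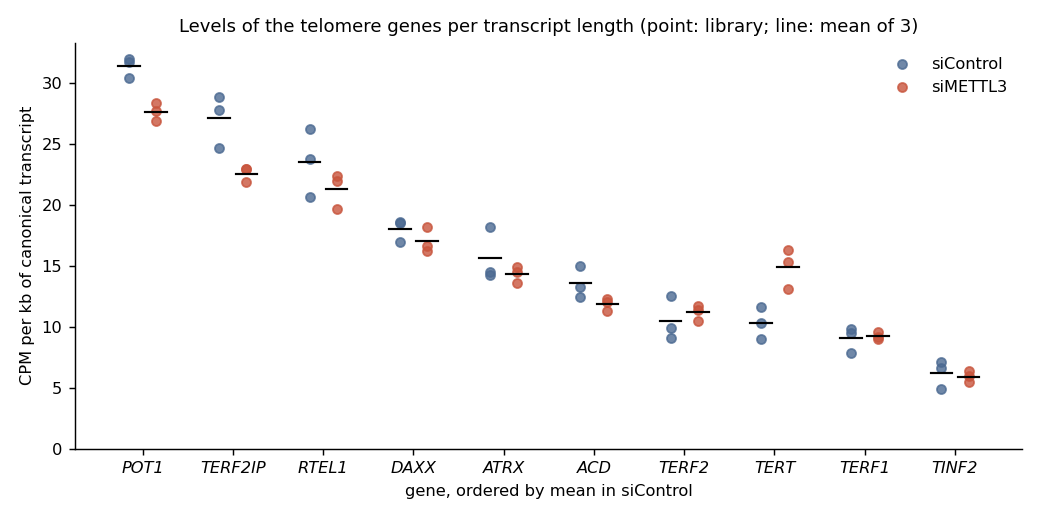
Level of each gene per length (y axis, CPM per kb of canonical transcript, from 0) in the siControl and siMETTL3 libraries, with points for libraries and lines for means of 3. POT1 is highest and TINF2 lowest in both groups. By mean, TERT moves from rank 8 in siControl to rank 5 in siMETTL3, with library values overlapping those of neighbours in both groups.

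Levels of different genes were compared per kb of the canonical transcript in GENCODE release 44. In siControl, POT1 was highest at 31.4 ± 0.819 CPM per kb (SD, n = 3), followed by TERF2IP at 27.1 ± 2.17 and RTEL1 at 23.6 ± 2.76. DAXX, ATRX and ACD followed at 18.1 ± 0.917, 15.7 ± 2.22 and 13.6 ± 1.29 CPM per kb. TERF2, TERT and TERF1 lay at 10.5 ± 1.79, 10.3 ± 1.31 and 9.06 ± 1.07 CPM per kb, and TINF2 at 6.22 ± 1.14. Ranges of neighbours in this order overlapped except between POT1 and TERF2IP, between RTEL1 and DAXX, and between TERF1 and TINF2. In siMETTL3, TERT reached 14.9 ± 1.66 CPM per kb and stood between DAXX and ATRX by mean. Its siMETTL3 libraries, at 13.1 to 16.3 CPM per kb, overlapped in range with those of both genes. The counts cover introns, so the order depends on the length used. Per kb of the deposited gene span, DAXX came first at 10.4 CPM per kb, TERT had rank 6 and TERF2IP came last at 0.507 CPM per kb.

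The members differ in sequence composition, which the selection did not use. GC content of the canonical transcript was 65.7% for TERT, 62.4% for RTEL1 and 62.1% for ACD, and 36.6% for POT1, 36.9% for ATRX and 38.1% for TERF1. The median over 14591 tested genes with a value was 48.6%. The letters GGACT, the most favoured context of m6A when read as RNA, occurred 10 times in RTEL1, 7 times in ATRX and 4 times each in TERT and TERF2. POT1, TERF2IP and TINF2 held 1 each. Per kb this was 2.17 for RTEL1, 0.990 for TERT and 0.255 for POT1, against a median of 0.928 over the same genes. These are letters only, and m6A itself was not analysed here.

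The wider telomere pathway was followed in 6 lists of 79 genes, of which 75 were tested. Of these, 9 rose and 14 fell, and 30.7% were called against 37.8% of all tested genes. Their median log2 fold change was -0.042. TERB1, TSPYL5, MYC and WT1 were too low to be tested, with at most 19 counts in any library.

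Of 16 telomerase biogenesis and recruitment genes, 4 rose and 2 fell (median log2 fold change -0.055), and the 37.5% called was near the background of 37.8%. Among the core proteins that bind the telomerase RNA, NHP2 went down from 91.9 ± 4.34 CPM to a mean of 67.6 ± 5.97 (edgeR FDR 0.000325, log2 fold change -0.44). DKC1, which encodes dyskerin and is named here after its values were seen, fell from 176 ± 26.5 CPM to a mean of 137 ± 3.40 (edgeR FDR 0.00700, log2 fold change -0.36). NOP10 and GAR1, the other core proteins, had log2 fold changes of -0.10 and 0.11 (edgeR FDR 0.498 and 0.548). TENT4B, a polymerase that adds tails to the telomerase RNA, rose from 42.2 ± 0.698 CPM to a mean of 57.3 ± 0.545 (log2 fold change 0.44). PINX1, an inhibitor of telomerase, rose with a log2 fold change of 0.34. PINX1 overlaps SOX7, and NHP2 overlaps RMND5B.

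The list of the CST complex and telomere replication had 5 of 11 lower and 0 higher genes, and all 11 log2 fold changes were below 0 (median -0.19). With 45.5% called, it lay above the background of 37.8%, and with 11 genes this is a description only. FEN1, the flap endonuclease of lagging strand synthesis, fell from 111 ± 4.42 CPM to a mean of 81.9 ± 1.11 (edgeR FDR 5.05e-05, log2 fold change -0.44). Its span overlaps FADS2. POLA1, the catalytic subunit of DNA polymerase alpha, and DCLRE1B, the Apollo nuclease that TERF2 recruits, had log2 fold changes of -0.28 and -0.31. DCLRE1B was not called when adjusted for intron length (FDR 0.0540). Of CST itself, which ends telomerase extension and fills in the other strand, TEN1 fell (log2 fold change -0.36; edgeR FDR 0.00911), though not without siMETTL3 replicate 1 (FDR 0.0587). TEN1 overlaps the readthrough gene TEN1-CDK3. STN1 did not pass (log2 fold change -0.18; edgeR FDR 0.239). CTC1 measured 85.6, 98.0 and 156.6 CPM in siControl and 96.9, 111.5 and 118.3 CPM in siMETTL3, and its log2 fold change was -0.051 (edgeR FDR 0.900). Without siControl replicate 3 it was 0.25 and past the threshold (FDR 0.0113). CTC1, STN1 and TEN1 were chosen after their values were seen.

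**Figure D4:**
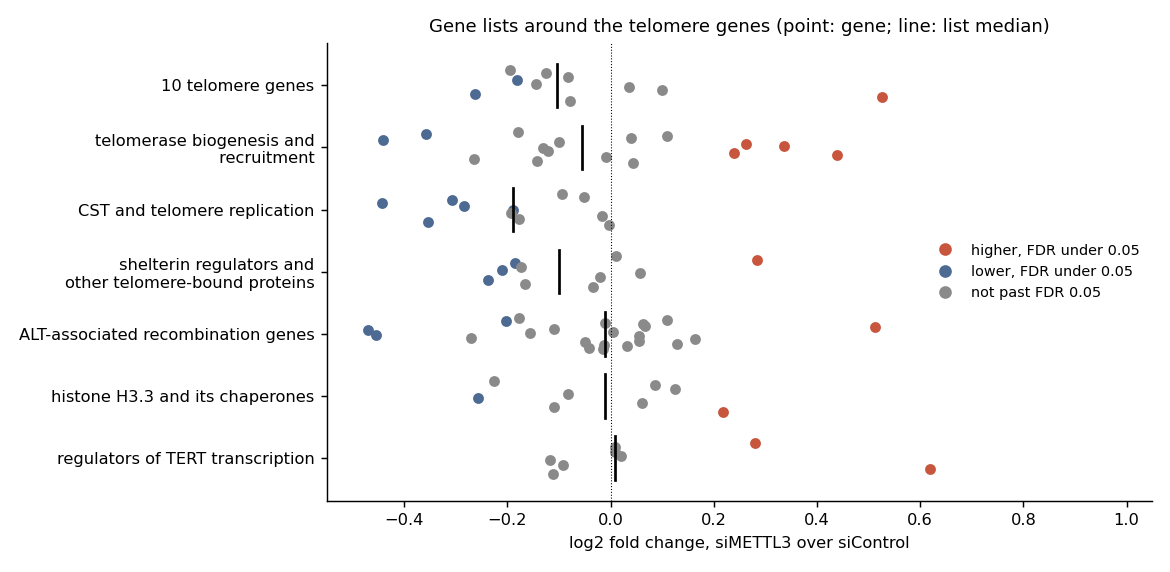
Log2 fold change of siMETTL3 over siControl (x axis) for the tested genes of each list (rows), with lines for list medians and colour for the call. TERT stands to the right of the other 9 telomere genes, and all 11 genes of the CST and replication list lie below 0.

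Of 10 tested regulators of shelterin and other telomere-bound proteins, 1 rose and 3 fell, a share of 40.0% that is near the background of 37.8%. HMBOX1, a protein that binds the telomeric repeat, rose (log2 fold change 0.28), while RAD50 of the MRN repair complex and the tankyrase TNKS2, which releases TERF1 from telomeres, fell (-0.21 and -0.24). RAD50 and TNKS2 were not called without siMETTL3 replicate 2 (FDR 0.0534 and 0.0701), and RAD50 overlaps AC116366.3 and IL5. Of 22 tested genes linked to ALT, 1 rose and 3 fell, and the share called was 18.2%, below the background of 37.8%. RAD51AP1, which promotes strand invasion, fell from 100.3 ± 8.38 CPM to a mean of 72.3 ± 2.54 (edgeR FDR 0.000140, log2 fold change -0.47). RMI2, a subunit of the BLM dissolvase complex whose span overlaps other genes, fell with a log2 fold change of -0.46. PML, whose nuclear bodies gather telomeres in ALT cells, rose from 12.2 ± 1.01 CPM to a mean of 17.4 ± 1.84 (edgeR FDR 0.00306, log2 fold change 0.51). Of 8 genes for histone H3.3 and its chaperones, H3-3B, which encodes H3.3 and overlaps UNK, fell (-0.26) and the HIRA partner UBN2 rose (0.22). The 2 called were 25% of that list, below the background of 37.8%. Adjusted for intron length, neither passed, and H3-3B was at -0.094 (FDR 0.187). Of 8 tested regulators of TERT transcription, MYCN and CTCF (0.28) rose and 0 fell. The share called was 25%, also below the 37.8% of all tested genes, and the list median was 0.0083.

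**Figure D5:**
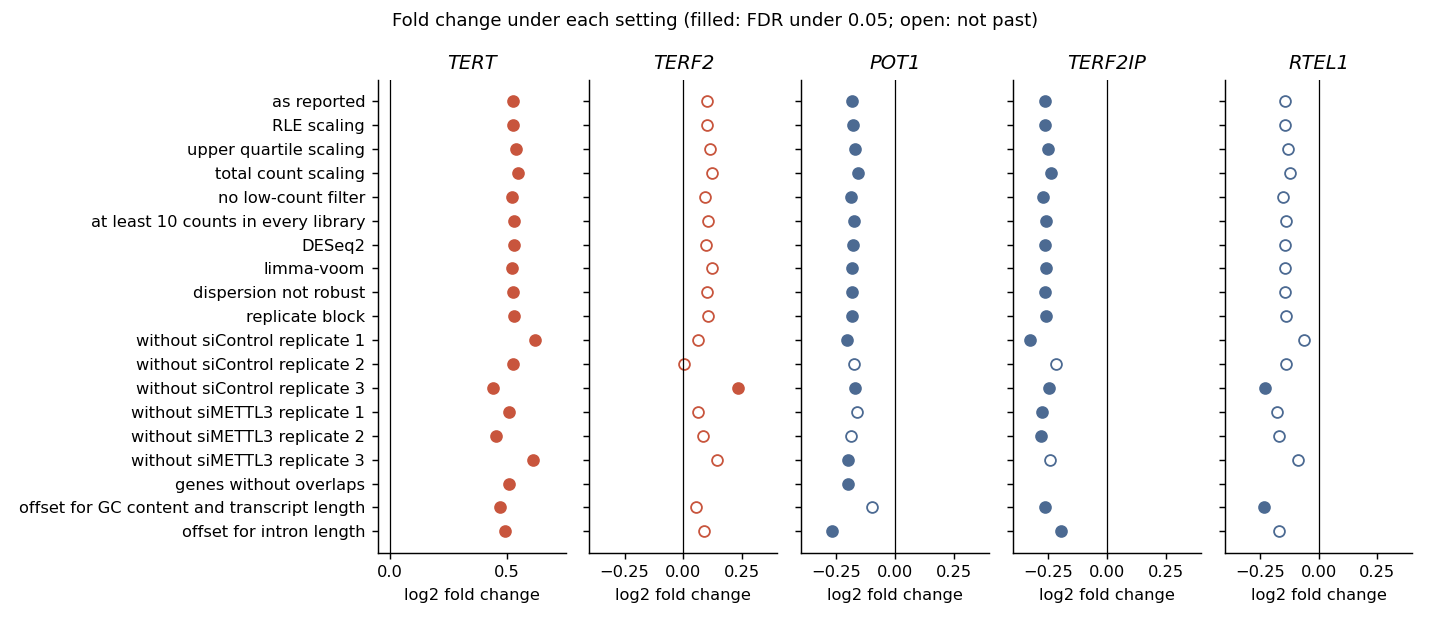
Log2 fold change (x axis) of 5 telomere genes under each setting (rows), filled where the FDR was under 0.05 and open where it was not. TERT is filled throughout, POT1 and TERF2IP lose the call in 4 and 2 settings, and TERF2 and RTEL1 gain it in 1 and 2.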

How the data were processed

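Poly(A) RNA of 6 Kelly libraries was sequenced. The deposited values are raw read counts per gene. Per the file headers, the authors made them with featureCounts 1.5.3 over whole gene spans of GENCODE release 33, introns included, with reads over several genes counted for each and no strand option. The submitters' processing notes name FastQC 0.11.5, Trimmomatic 0.36, HISAT2 2.1.0 and GRCh38. The deposited Length column holds span lengths in bases.

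Counts were filtered with filterByExpr (15311 of 19923 genes kept), scaled by TMM and compared with edgeR 4.0.16 in R 4.3.3 (robust quasi-likelihood F-test, all 6 libraries, no covariate, Benjamini-Hochberg adjustment over all tested genes). Each SE was obtained from the log2 fold change and its F statistic (|log2 fold change| / √F), and intervals use the test's degrees of freedom. Members and lists were chosen with earlier results of these data known. Named genes are all members, METTL3, MYCN, up to 3 called genes with the smallest FDR from each list, and the 3 profiles closest to TERT (average log2 CPM of at least 3, log2 of CPM plus 0.5). DKC1, NOP10, GAR1, CTC1, STN1 and TEN1 were added outside this rule, with the values known. Replicates differed by more than sampling noise (chi-square per degree of freedom 3.05 to 16.1). Alternatives were other scalings and filters, DESeq2 1.42.0, limma-voom (limma 3.58.1), non-robust dispersions, a replicate block, each library left out, genes without overlaps, and 2 offsets added after the data were seen.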

Additional observations from a re-analysis of the deposited data

How the results depend on the processing

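Over 18 alternatives, 635 log2 fold changes of 36 genes were recomputed. The offsets for GC content with transcript length and for intron length were chosen after seeing the data. Of the values, 12 lost the call, 4 gained it and 11 changed sign, of which 1 was past the threshold. METTL3 and TERT kept direction and call under all 18. METTL3 overlaps TOX4 and was kept by design in the fit on genes without overlaps. Leaving out each library in turn, METTL3 ran from -0.74 to -0.69, telomere genes called higher from 1 to 2 and lower from 0 to 3, and pathway genes called higher from 8 to 11 and lower from 9 to 19. On genes without overlaps, where 5 of the 10 telomere genes were tested, 1 was lower, as were 7 pathway genes; the smaller set accounts for at least part of this. With the GC offset the telomere genes called lower were TERF2IP and RTEL1.

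Signs changed for TERF1 without siControl replicate 1 (-0.060), for TINF2 and GAR1 without siControl replicate 2 (0.025 and -0.0042), for NOP10 and CTC1 without siControl replicate 3 (4.11e-05 and 0.25) and for CTC1 without siMETTL3 replicate 1 (0.025) and under limma-voom (0.0047). They also changed for NOP10 with the GC offset (0.11), and for TINF2, DAXX and NOP10 with the intron length offset (0.059, 0.050 and 0.046). The cause was not tested. Over the fits that left out a library, TERF1 ran from -0.060 to 0.098, TINF2 from -0.21 to 0.025, NOP10 from -0.21 to 4.11e-05, GAR1 from -0.0042 to 0.27 and CTC1 from -0.22 to 0.25. Outside the telomere genes, calls were lost by RAD50 and TNKS2 without siMETTL3 replicate 2 (FDR 0.0534 and 0.0701), by TEN1 without siMETTL3 replicate 1 (FDR 0.0587) and by DCLRE1B, H3-3B and UBN2 with the intron length offset (FDR 0.0540, 0.187 and 0.0509). GAR1 gained one without siControl replicate 3 (FDR 0.0267).

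Deviations from the group means correlated by 0.040, 0.049 and 0.067 for equal replicate numbers, and by -0.064 to 0.026 for unequal numbers. These correlations were small, and they do not settle whether equal numbers were paired. A replicate block in the model raised the number of genes called from 5786 to 6166. With the replicate block, METTL3 was at -0.71 and TERT at 0.53, 1 telomere gene was higher and 2 lower, and 9 pathway genes were higher and 17 lower. Among the 10 telomere genes, depth limits TINF2 most, with 134 to 257 counts per library.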
